A study of Homo sapiens with 6 samples.

Results

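The 7 cyclin-dependent kinase (CDK) inhibitor genes CDKN1A, CDKN1B, CDKN1C, CDKN2A, CDKN2B, CDKN2C and CDKN2D were read in HuCCT1 cells with and without transduced CD90. They were taken by gene symbol from a transcriptome table of 20811 genes, and all 7 were in the table. HuCCT1 is a human intrahepatic cholangiocarcinoma (iCCA) cell line. Human THY1-CMV-GFP, which encodes CD90, was brought into the HuCCT1/CD90+ line, while the HuCCT1/CD90- line was given Lenti-CMV-GFP-2A-Puro-Blank Lentivirus, each virus at an MOI of 40. Each group was 3 libraries of a single transduced line in the same medium with no other treatment, so that an effect of CD90 and any other difference between the lines cannot be told apart. Nothing in the labels says that the libraries came from separate cultures, and the p-values measure the spread between these libraries, which may be technical.

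CDK inhibitors hold back the cell cycle by binding cyclin-dependent kinases or their complexes with cyclins. The CIP/KIP family (CDKN1A or p21, CDKN1B or p27, CDKN1C or p57) binds cyclin-CDK complexes broadly, above all those of CDK2, and can also help cyclin D to assemble with CDK4 and CDK6. The INK4 family (CDKN2A or p16, CDKN2B or p15, CDKN2C or p18, CDKN2D or p19) binds CDK4 and CDK6 alone and keeps cyclin D away from them. CDKN1A is induced by DNA damage, CDKN2B is known as a target of TGF-β, and loss of CDKN2A is common in cancers of the bile duct. The amount of p21 and p27 protein is also set by degradation, which a transcript level does not show.

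Values are RPM, the reads of a gene scaled to the reads on all genes of its library, from 1 amplicon per gene. An amplicon has no transcript length to correct for, and amplicons amplify unequally, so levels are compared between lines and not between genes. The libraries held 8587634 to 10551516 reads on genes, and 3 reads, the detection floor, came to 0.284 to 0.349 RPM. The floor covers counting error only, for reads amplified without molecular identifiers, while the confidence intervals given with limma rest on the spread between libraries. THY1 had 0, 0.107 and 0 RPM in HuCCT1/CD90- replicates 1, 2 and 3 and 46.6, 51.8 and 73.8 RPM in the transduced line, so that it was at least 179-fold higher when HuCCT1/CD90- is set to 3 reads per library. Of 7 cholangiocyte markers fixed for the check, 5 were higher and 0 lower in HuCCT1/CD90+ (limma, and also 0 lower at an unadjusted p of at most 0.05 and with edgeR), against 9.41% of all genes higher, with 3 higher under the replicate block and 3 to 5 called with 1 library left out. The cytokeratin genes KRT7 and KRT19 had means of 3433 and 3228 RPM in HuCCT1/CD90-. The summed level of 12 markers of other cells ran from 73.6 to 81.9 RPM without CD90 and from 99.7 to 116 RPM with it, with PTPRC, the common leukocyte marker, near 0. Of the 12, 1 (CD68) was higher and 4 were lower, 41.7% against 18.9% of all genes, with 1 higher and 2 lower under the block and 1 higher and 3 lower with edgeR. Their part in the results was not tested, and in these bulk libraries fewer cells with a transcript and less of it per cell cannot be told apart.

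The promoters of the members that the comparison turned on are shown first, since CDKN1A and CDKN1B were higher, CDKN2C was lower, CDKN2B missed the threshold narrowly (adjusted p = 0.052, limma) and CDKN2A was not detected. The table of RefSeq promoters held 9 start sites for 6 of the 7 members. The 250 bases before a start are given 5′ to 3′ on the strand of the gene, on GRCh38.p14. Capitals mark the GC box GGGCGG, the CCAAT box CCAAT and the E-box CACGTG on either strand, and matches of the GC box that adjoin can share bases. CDKN2A has a start for p16 and another, further upstream, for the unrelated protein p14ARF, and the start of p16 is shown. CDKN2C has 3 starts, of which the GC-rich middle and the last are shown.
CDKN1A, chr6:36678464-36678713, plus strand: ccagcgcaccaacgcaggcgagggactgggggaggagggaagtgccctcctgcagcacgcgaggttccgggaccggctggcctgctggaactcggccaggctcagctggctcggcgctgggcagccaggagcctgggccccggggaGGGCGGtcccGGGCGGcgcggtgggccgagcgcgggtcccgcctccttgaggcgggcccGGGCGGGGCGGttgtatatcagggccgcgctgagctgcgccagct
CDKN1B, chr12:12717118-12717367, plus strand: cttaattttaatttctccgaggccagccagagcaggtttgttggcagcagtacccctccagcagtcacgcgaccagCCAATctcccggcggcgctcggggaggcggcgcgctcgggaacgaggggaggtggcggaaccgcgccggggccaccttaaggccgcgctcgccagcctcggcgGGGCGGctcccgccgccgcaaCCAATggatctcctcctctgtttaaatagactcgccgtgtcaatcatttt
CDKN2B, chr9:22009306-22009555, minus strand: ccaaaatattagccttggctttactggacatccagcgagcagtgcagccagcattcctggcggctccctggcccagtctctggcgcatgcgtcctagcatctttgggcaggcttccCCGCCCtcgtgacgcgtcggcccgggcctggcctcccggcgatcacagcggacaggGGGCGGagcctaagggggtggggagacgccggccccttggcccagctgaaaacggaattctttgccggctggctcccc
CDKN2A, chr9:21974858-21975107, minus strand: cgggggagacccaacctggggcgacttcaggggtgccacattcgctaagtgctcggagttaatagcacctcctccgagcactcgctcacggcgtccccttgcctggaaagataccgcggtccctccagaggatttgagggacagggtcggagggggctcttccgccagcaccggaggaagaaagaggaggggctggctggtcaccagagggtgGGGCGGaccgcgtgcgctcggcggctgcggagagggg
CDKN2C, chr1:50968456-50968705, plus strand: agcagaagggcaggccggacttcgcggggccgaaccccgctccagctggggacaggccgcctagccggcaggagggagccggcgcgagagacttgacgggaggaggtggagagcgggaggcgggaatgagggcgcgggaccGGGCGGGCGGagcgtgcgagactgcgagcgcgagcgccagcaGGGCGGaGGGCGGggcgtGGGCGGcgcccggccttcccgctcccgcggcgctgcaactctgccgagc
CDKN2C, chr1:50969995-50970244, plus strand: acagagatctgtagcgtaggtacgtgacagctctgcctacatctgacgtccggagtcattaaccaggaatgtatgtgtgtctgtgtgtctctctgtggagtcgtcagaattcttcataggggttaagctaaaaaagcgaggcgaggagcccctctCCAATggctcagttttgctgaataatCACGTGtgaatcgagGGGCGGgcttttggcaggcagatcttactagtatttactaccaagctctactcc
CDKN1A held 4 GC boxes, CDKN1B 1 GC box and 2 CCAAT boxes, and CDKN2B 2 GC boxes. The middle promoter of CDKN2C held 5 GC boxes, and its last promoter held 1 GC box, 1 CCAAT box and 1 E-box. Over all 35116 promoters of the table, 42.6% held a GC box, 32% a CCAAT box and 6.34% an E-box. The promoter of CDKN2A held 1 GC box, so that a GC box was present in a member that was higher, in one that was lower and in one not detected. A TATA box, TATAAA, which 10.7% of all promoters held, was in none of the 9 promoters of the members.

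The members that differed between the lines were CDKN1A and CDKN1B, both higher in HuCCT1/CD90+, and CDKN2C, which was lower. These 3 of 7 (42.9%) passed at an adjusted p of 0.05 in limma, as did 18.9% of the 20811 genes. By direction 2 of 7 were higher, against 9.41% of all genes, and 1 of 7 was lower, against 9.52%. All genes include 3805 with no read in any library, and of the 12062 genes averaging 1 RPM or more the same test called 14.35% higher and 15.01% lower. With the thresholds of the study, a fold change of 1.5 and an unadjusted p of at most 0.05, CDKN2B was a DEG too, so that 4 of 7 were DEGs against 20.1% of all genes, and 3 of 7 were higher against 10.1%. CDKN2A was too low to be tested with edgeR or among genes averaging 1 RPM or more, and 5 of the other 6 members passed in each, against 44.4% and 41.7% of the genes tested. CDKN1A, CDKN1B, CDKN2B and CDKN2C had no overlap between the 3 libraries of each line, as had 35% of all genes. The median log2 fold change was 0.79 over the 7 members and 0 over all genes.

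**Figure D1:**
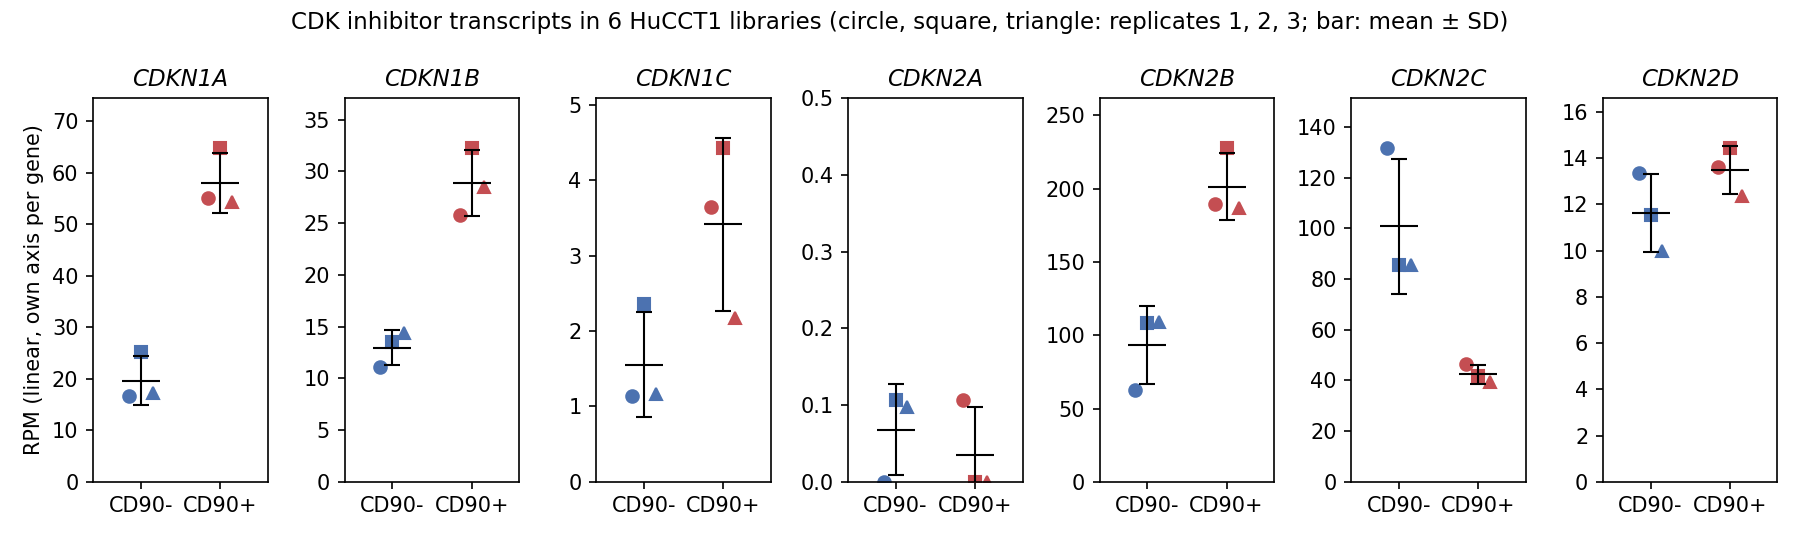
RPM of the 7 CDK inhibitors in each library, on a linear axis of its own for each gene, with HuCCT1/CD90- in blue and HuCCT1/CD90+ in red. Markers are replicates 1 to 3 and bars the mean ± SD (n = 3), and the lines do not overlap for CDKN1A, CDKN1B, CDKN2B and CDKN2C.

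Among the CIP/KIP genes, CDKN1A lies on chromosome 6 of GRCh38 from 36676460 to 36687339 (GENCODE 29). It had 16.6, 25.1 and 17.3 RPM in HuCCT1/CD90- and 55.0, 64.7 and 54.4 RPM in HuCCT1/CD90+, or 175 to 235 reads against 501 to 556. Every HuCCT1/CD90+ library was above every HuCCT1/CD90- library, and replicate 2 was the highest in both lines. The mean rose 2.95-fold, from 19.7 ± 4.76 to 58.0 ± 5.82 RPM (SD, n = 3 each). The log2 fold change was 1.53 with a 95% confidence interval from 1.03 to 2.04 (adjusted p = 0.010, limma). The call held with any 1 library left out, with adjusted p-values from 0.0073 to 0.045. Around it on chromosome 6, the median log2 change of the 50 nearest genes was -0.13.

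CDKN1B, whose product p27 is the main CIP/KIP inhibitor of resting cells, lies on chromosome 12 from 12715058 to 12722371. It had 11.1, 13.5 and 14.4 RPM in HuCCT1/CD90- and 25.8, 32.3 and 28.5 RPM in HuCCT1/CD90+, again without overlap. The mean rose 2.23-fold, from 13.0 ± 1.69 to 28.9 ± 3.22 RPM, with a log2 fold change of 1.10 (95% confidence interval from 0.75 to 1.45, adjusted p = 0.0092, limma). It kept its call with any 1 library left out. The 50 nearest genes on chromosome 12 had a median log2 change of 0.33, and with this median taken out the log2 fold change of CDKN1B was 0.79 (adjusted p = 0.024).

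CDKN1C, an imprinted gene on chromosome 11 from 2883213 to 2885773, was read from only 12 to 38 reads per library. It had 1.14, 2.35 and 1.16 RPM in HuCCT1/CD90- and 3.65, 4.43 and 2.17 RPM in HuCCT1/CD90+. The lines overlapped, because HuCCT1/CD90+ replicate 3 was under HuCCT1/CD90- replicate 2. Between libraries of the same number HuCCT1/CD90+ was the higher each time, and CDKN1C did not pass with the replicate block (adjusted p = 0.0998, limma). The log2 fold change of 0.79 had a 95% confidence interval from -0.01 to 1.58 and did not pass (unadjusted p = 0.051, adjusted p = 0.16, limma). It passed on the read counts with edgeR (log2 fold change 1.14, adjusted p = 0.020) and narrowly with DESeq2 (adjusted p = 0.049), and over the alternatives run its adjusted p ranged from 0.019 to 0.36. The 50 nearest genes had a median of 0.37, the most of any member.

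**Figure D2:**
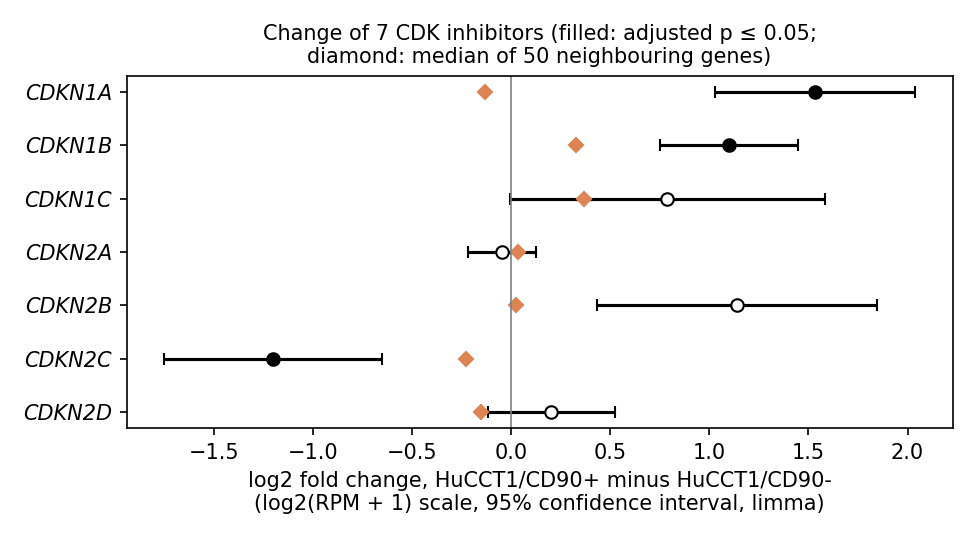
Log2 fold change between HuCCT1/CD90+ and HuCCT1/CD90- of each member on the log2(RPM + 1) scale, with its 95% confidence interval from limma, filled where the adjusted p was at most 0.05. Diamonds are the median change of the 50 nearest genes that averaged 10 RPM or more, which lies between -0.23 for CDKN2C and 0.37 for CDKN1C.

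In the INK4 family, CDKN2B and CDKN2C went opposite ways. CDKN2B lies on chromosome 9 from 22002903 to 22009363 and had 62.5, 108 and 109 RPM in HuCCT1/CD90- and 189, 228 and 187 RPM in HuCCT1/CD90+. The lowest HuCCT1/CD90+ library was well above the highest HuCCT1/CD90- library, and HuCCT1/CD90- replicate 1 stood under its other two replicates. The means were 93.4 ± 26.8 and 201 ± 22.8 RPM, a ratio of 2.16. The log2 fold change was 1.14 (95% confidence interval from 0.43 to 1.85, unadjusted p = 0.0099), and its adjusted p of 0.052 from limma fell just short of the threshold. Without HuCCT1/CD90- replicate 1 the log2 fold change was 0.88 and passed (adjusted p = 0.027), while without any other library the adjusted p was 0.092 to 0.15. It also passed when only genes averaging 1 RPM or more were fitted (adjusted p = 0.0015), with edgeR (4.7e-05) and with DESeq2 (6.1e-08), but not with the replicate number as a block (0.095).

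CDKN2C lies on chromosome 1 from 50960745 to 50974633 and was the only member that fell. It had 132, 85.7 and 85.4 RPM in HuCCT1/CD90- and 46.6, 41.6 and 39.3 RPM in HuCCT1/CD90+, or 801 to 1389 reads against 357 to 435. The lines did not overlap, and here HuCCT1/CD90- replicate 1 stood above the others. The mean fell from 101 ± 26.6 to 42.5 ± 3.76 RPM, 2.37-fold lower, with a log2 fold change of -1.20 (95% confidence interval from -1.75 to -0.65, adjusted p = 0.024, limma). The call rested on all libraries but HuCCT1/CD90- replicate 1. Without that library the log2 fold change was -0.996 (adjusted p = 0.013). Without HuCCT1/CD90- replicate 2 or 3 the adjusted p was 0.055 and 0.057, and without HuCCT1/CD90+ replicate 1, 2 or 3 it was 0.068, 0.083 and 0.090. Neighbouring genes of chromosome 1 had a median of -0.23, and CDKN2C still passed with that median taken out (log2 fold change -0.98, adjusted p = 0.046).

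The ratio of CDKN2B to CDKN2C restates the values above by library, and compares libraries and not the amounts of the 2 transcripts. It is no further observation, since these 2 members were already seen to go opposite ways. The ratio was 0.474, 1.26 and 1.28 in HuCCT1/CD90- and 4.06, 5.48 and 4.77 in HuCCT1/CD90+, and was not tested. HuCCT1/CD90- replicate 1, lowest in CDKN2B and highest in CDKN2C, had the lowest ratio.

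**Figure D3:**
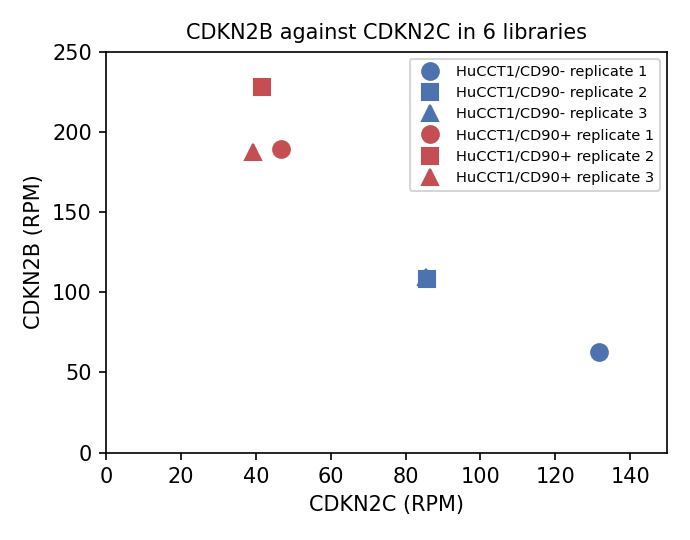
CDKN2B against CDKN2C in RPM, 1 point per library, with HuCCT1/CD90- in blue and HuCCT1/CD90+ in red. The HuCCT1/CD90+ libraries sit at the upper left and HuCCT1/CD90- replicate 1 at the lower right, and HuCCT1/CD90- replicates 2 and 3 lie on top of each other.

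CDKN2A was at the floor in both lines, although it lies next to CDKN2B on chromosome 9, from 21967753 to 21995301. It had 0, 1 and 1 reads in HuCCT1/CD90- and 1, 0 and 0 reads in HuCCT1/CD90+, under the 3 reads that count as detected, so no fold is given. The table does not say which exon the amplicon reads, and p16 and p14ARF were not told apart. MTAP, an enzyme gene of methionine salvage on the other side of CDKN2A, had 13.3, 16.6 and 23.3 RPM in HuCCT1/CD90- and 21.0, 18.98 and 21.8 RPM in HuCCT1/CD90+, with overlap (adjusted p = 0.57). Of 9 genes around CDKN2A and CDKN2B, 1 was higher and 0 were lower (limma, with 2 lower at an unadjusted p of at most 0.05 and 2 with edgeR), against 18.9% of all genes. The gene that passed was FOCAD, from 76.0 to 120 RPM (a log2 difference of 0.66, adjusted p = 0.039, up to 0.12 with 1 library left out). KLHL9, the adaptor of a ubiquitin ligase, had 86.9 and 64.6 RPM (adjusted p = 0.15, 0.033 with edgeR).

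CDKN2D, on chromosome 19 from 10566462 to 10569059, did not pass the test. It had 13.4, 11.6 and 9.99 RPM in HuCCT1/CD90- and 13.6, 14.4 and 12.4 RPM in HuCCT1/CD90+, and the lines overlapped. Between libraries of the same number HuCCT1/CD90+ was the higher each time (adjusted p = 0.26 with the replicate block, limma). The log2 fold change of 0.20 had a 95% confidence interval from -0.12 to 0.52 (adjusted p = 0.37, limma), which leaves a rise of up to 0.52 or a small fall within the error.

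The kinases and cyclins that the members act on were read from a list of 16 genes. Of these 4 were higher, 1 was lower and 11 did not pass, so that 31.2% passed against 18.9% of all genes. Among genes averaging 1 RPM or more the same test called 14.35% higher and 15.01% lower. The median log2 change of the 16 was 0.26. With 1 library left out 1 to 3 passed, the fewest without HuCCT1/CD90- replicate 2 or HuCCT1/CD90+ replicate 2 or 3. Under the replicate block 3 were higher and 0 lower in limma, where 13.1% of all genes passed, with 1 lower at an unadjusted p of at most 0.05 without the block. With edgeR 6 were higher and 2 lower, where 44.4% of the genes tested passed. CCND1, the cyclin D1 gene whose partners the INK4 proteins hold, had 507, 429 and 376 RPM in HuCCT1/CD90- and 949, 948 and 945 RPM in HuCCT1/CD90+ (log2 fold change 1.12, adjusted p = 0.0067, limma). CCNE1, the cyclin of CDK2 at the start of S phase, rose from 3.19 ± 0.940 to 8.84 ± 1.54 RPM (adjusted p = 0.023, up to 0.083 with 1 library left out). CDK4 was lower, at 276 ± 33.6 against 186 ± 16.3 RPM (adjusted p = 0.041, 0.058 with the block, 0.062 with the neighbouring genes taken out, up to 0.12 with 1 library left out). The log2 fold change of CDK4 was -0.56, also with the block, and -0.50 with the neighbouring genes taken out. CDK2 was higher by 0.28 on the log2 scale and CCNA2, the S phase cyclin, by 0.55 (adjusted p = 0.042 and 0.041, up to 0.13 for each with 1 library left out, and for CCNA2 0.090 with the block and 0.11 with the neighbouring genes taken out). The call of CDK2 was lost with edgeR (0.10), DESeq2 (0.085), quantile normalization (0.086) and the fit of genes averaging 1 RPM or more (0.15). CDK6, the other partner of cyclin D, had 114 ± 23.5 and 132 ± 9.78 RPM and did not pass (adjusted p = 0.49).

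Of 17 genes that act in the turnover of the inhibitors 2 were higher and 1 lower, 17.6% against 18.9% of all genes, with a median log2 fold change of -0.04, and 0 to 2 passed with 1 library left out. SKP2 and CKS1B, which mark p27 for destruction, had 35.4 and 247 RPM in HuCCT1/CD90- and 26.1 and 184 RPM in HuCCT1/CD90+ (adjusted p = 0.27 and 0.071). CKS1B passed with the block (0.020), edgeR (0.022) and DESeq2 (0.019), but its log2 difference of -0.42 was -0.08 with the neighbouring genes taken out (adjusted p = 0.76). DTL, the substrate receptor that sends p21 to the CUL4-DDB1 ligase in S phase, fell from 141 ± 30.4 to 60.6 ± 8.70 RPM (a log2 difference of -1.20, adjusted p = 0.024, up to 0.081 with 1 library left out). With the neighbouring genes taken out the log2 difference of DTL was -0.92 (adjusted p = 0.051). CUL1 was higher by 0.81 and FBXW7, which sends cyclin E to destruction, by 0.96 on the log2 scale (adjusted p = 0.048 and 0.049, 0.068 to 0.14 and 0.084 to 0.12 with any 1 library left out, and 0.069 with the block for FBXW7). With the neighbouring genes taken out CUL1 was at 0.30 (adjusted p = 0.39) and FBXW7 at 0.68 (adjusted p = 0.12). DDB1 and CDC20, which had the highest mean RPM of the list, did not pass (adjusted p = 0.10 and 0.40).

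**Figure D4:**
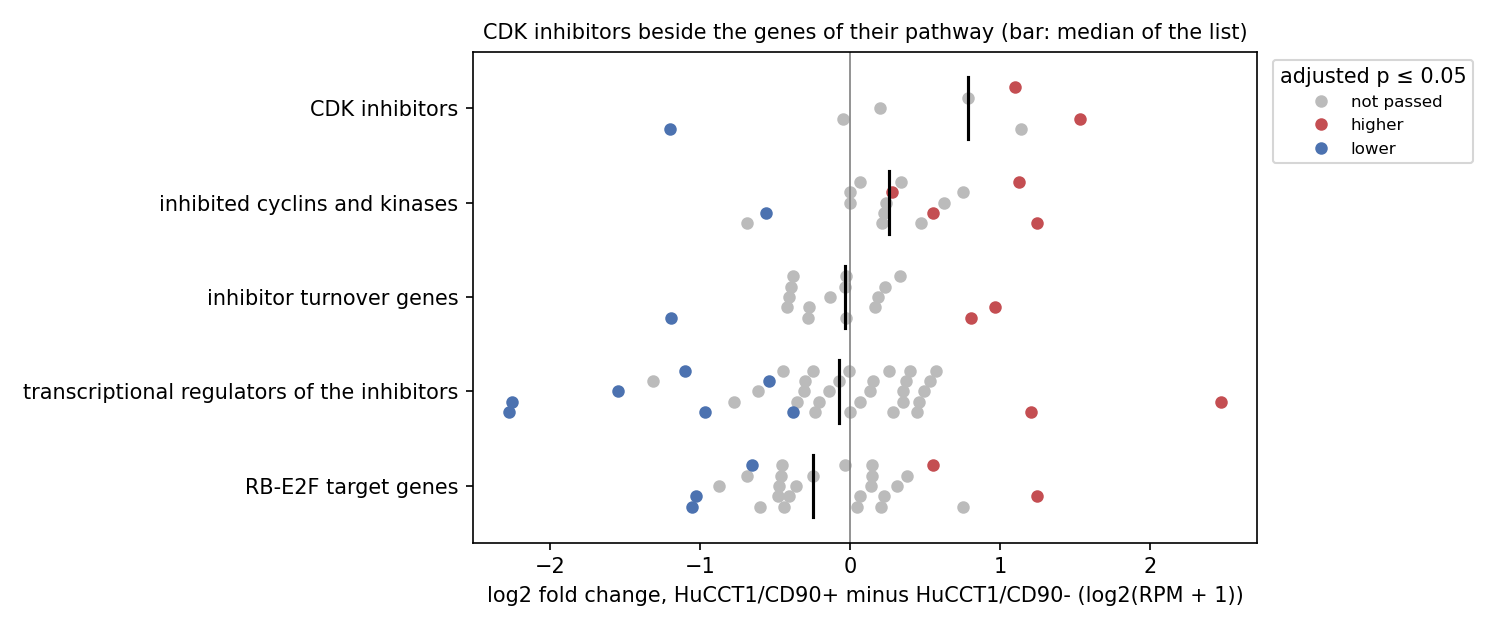
Log2 fold change of each gene of 5 lists on the log2(RPM + 1) scale, coloured where the adjusted p from limma was at most 0.05, with a bar at the median of each list. The medians run from -0.25 for the RB-E2F target genes to 0.79 for the CDK inhibitors.

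Of 37 regulators of transcription of the members 2 were higher and 7 lower, or 24.3% against 18.9% of all genes. Among genes averaging 1 RPM or more 14.35% were higher and 15.01% lower. The median log2 change of the 37 was -0.07. Under the block 2 were higher and 4 lower, where 13.1% of all genes passed, and with edgeR 5 were higher and 10 lower, where 44.4% passed. Without HuCCT1/CD90+ replicate 1, 2 or 3 the count was 4, 5 and 5. The 2 that rose were KLF4 and KLF6, zinc finger factors known to act on CDKN1A. KLF4 rose from 1.31 ± 0.811 to 11.3 ± 1.76 RPM (a log2 difference of 2.47, adjusted p = 0.013, 0.056 with the block, up to 0.059 with 1 library left out). KLF6 rose from 58.1 ± 3.94 to 135 ± 12.2 RPM (a log2 difference of 1.20, adjusted p = 0.0027). ID1, an inhibitor of basic helix-loop-helix factors that is known to repress CDKN2A, fell from 511 ± 112 to 106 ± 18.8 RPM (a log2 difference of -2.25, adjusted p = 0.0064). MYC, which with ZBTB17 represses CDKN1A and CDKN2B, had 103 and 154 RPM and did not pass (adjusted p = 0.086). It passed with the block (0.037) and edgeR (0.0060), and its log2 difference of 0.57 was 0.35 with the neighbouring genes taken out (adjusted p = 0.26). SMAD3, which carries the TGF-β signal to CDKN2B, had 342 ± 85.4 and 374 ± 24.6 RPM (adjusted p = 0.76), and FOXO3, an activator of CDKN1B, had 96.7 and 107 RPM (adjusted p = 0.43). The log2 difference of FOXO3 was 0.14, and 0.64 with the neighbouring genes, whose median was -0.51, taken out (adjusted p = 0.016).

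Downstream of the members, 27 genes driven by E2F once RB is phosphorylated held 2 that were higher and 3 that were lower, 18.5% against 18.9% of all genes. Among genes averaging 1 RPM or more 14.35% were higher and 15.01% lower. The median log2 change of the 27 was -0.25. With 1 library left out 2 to 4 passed, the fewest without replicate 2 of either line. With edgeR and with DESeq2 3 were higher and 10 lower, where 44.4% and 37% of the genes tested passed. At an unadjusted p of at most 0.05 in limma 2 were higher and 10 lower, but no share of all genes was counted at that level. With a fold change of 1.5 required as well, 1 was higher and 5 were lower, against 10.1% and 9.98% of all genes. TYMS, which makes thymidylate for DNA synthesis, fell from 206 ± 17.7 to 98.4 ± 9.32 RPM (a log2 difference of -1.06, adjusted p = 0.0055). MCM3, a subunit of the replicative helicase, fell from 305 ± 49.96 to 148 ± 8.17 RPM (adjusted p = 0.011), and MYBL2 from 36.5 to 23.1 RPM (adjusted p = 0.041, 0.065 with the block, up to 0.13 with 1 library left out). The genes that rose were CCNE1 and CCNA2, given above. E2F1 and TK1 had log2 fold changes of 0.07 and 0.05 (adjusted p = 0.98 and 1.0).

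Around CDKN1C, 3 of 13 genes were higher and 1 lower, against 9.41% and 9.52% of all genes, or 0 and 1 with the block in limma, against 13.1% in either direction, where 4 were higher at an unadjusted p of at most 0.05 without it and 3 with edgeR. H19, the noncoding RNA of the neighbouring imprinted domain, fell from 106 ± 13.3 to 1.62 ± 0.442 RPM (a log2 difference of -5.35, adjusted p = 0.00042). PHLDA2, imprinted together with CDKN1C, had 10.0, 20.4 and 18.04 RPM in HuCCT1/CD90- and 91.0, 57.5 and 56.8 RPM in HuCCT1/CD90+ (log2 fold change 2.04, adjusted p = 0.024, 0.12 with the block, up to 0.073 with 1 library left out). TSSC4 was higher by 0.73 on the log2 scale (adjusted p = 0.034, 0.15 with the block, up to 0.11 with 1 library left out) and by 0.37 with the neighbouring genes taken out (adjusted p = 0.18). NAP1L4 had 80.7 and 126 RPM (adjusted p = 0.11, 0.0038 with edgeR), and its log2 difference of 0.62 was 0.26 with the neighbouring genes taken out (adjusted p = 0.53).

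The genes whose log2(RPM + 1) followed a member most closely over the 6 libraries were looked up among 9222 genes that averaged 10 RPM or more in either line. These r values describe 6 libraries of 2 lines and mostly carry the difference between the lines. CDKN1A was closest to DENND3 (r = 0.998) and POLD4 (r = 0.998), and CDKN1B to RNF169 (r = 0.997) and ZDHHC5 (r = 0.997). CDKN2B was closest to UGP2 (r = 0.996) and GSK3A (r = 0.995), and CDKN2C to HDDC2 (r = 0.999) and LY6G5B (r = 0.997). CDKN2D, which did not part the lines, was closest to RCC1 (r = 0.986) and PI4KAP1 (r = 0.979).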

How the data were processed

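RNA of HuCCT1/CD90- and HuCCT1/CD90+ cells, 3 libraries each, was amplified by the authors with the Ion AmpliSeq Transcriptome panel, sequenced on the Ion Torrent platform and counted with the ampliSeqRNA plugin. The submitters' processing notes name hg19 and the Transcriptome Analysis Console. The deposited RPM values are normalized by the authors to reads on genes, for 20811 genes without a filter. They were whole multiples of 1 read for 100% of values (within 0.1 read), and whole reads were recovered.

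Here log2(RPM + 1) was tested with limma 3.58.1 in R 4.3.3 (lmFit and eBayes, default settings, two-sided) over all genes with Benjamini-Hochberg adjustment. This scale understates changes of low genes. No share of all genes was counted at an unadjusted p of at most 0.05 alone, so the counts of the lists at that level stand without a background. The fits were tested on simulated data. Alternatives were offsets, filters on the mean, quantile normalization, median centring, trended robust eBayes, the replicate block, each library left out, the median of 50 neighbouring genes taken out, edgeR 4.0.16 (quasi-likelihood, filterByExpr, 12070 genes) and DESeq2 1.42.0 on recovered reads. The filter at 1 RPM kept 6 and that at 10 RPM 5 of the 7 members. After the mean of each line was taken out, libraries sharing a number correlated with r = 0.21, 0.32 and 0.18 over genes, so the numbers were taken to pair libraries, from this check alone. The main fit does not use this pairing. The replicate block does, and under it 13.1% of all genes passed, against 18.9% in the main fit.

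Members and lists were chosen with earlier results of these data known. Named genes are the members and THY1, the 3 genes per list with the largest change that passed and a mean of at least 10 RPM in a line, the 2 with the highest mean, MTAP and 11 regulators, cyclins and kinases chosen by name, and the 2 genes most like each member. CD68, PTPRC, KRT7, KRT19 and AREG were named after their values were seen. Gene positions are those of GENCODE 29 on GRCh38, and 19667 genes were placed. ASCL2 and CDKN2B-AS1 of the lists were not analysed here, and some genes of the lists and 1 planned list are not reported here. No 2 libraries were close enough in counts to be a single library deposited again.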

Additional observations from a re-analysis of the deposited data

How the results depend on the processing

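CDKN1A and CDKN1B kept their direction and their side of the threshold under all 18 alternatives run, with log2 fold changes from 1.37 to 1.72 and from 0.79 to 1.17. CDKN2C kept its direction and passed except when 1 library other than HuCCT1/CD90- replicate 1 was left out. Its log2 fold change ran from -1.31 to -0.996 over the libraries left out. CDKN2B passed at 1.12 with DESeq2 and edgeR, 1.14 among genes averaging 1 or 10 RPM and with the thresholds of the study, which were added after seeing the data, and 1.11 with median centring. It ran from 0.88 to 1.28 over the libraries left out and passed without HuCCT1/CD90- replicate 1. CDKN1C passed at 1.154 with DESeq2, 1.14 with edgeR and 0.79 among genes averaging 1 RPM. It did not pass at 0.36 with an offset of 5 RPM (adjusted p = 0.17, limma) or at 0.52 with the neighbouring genes taken out (adjusted p = 0.35, limma). CDKN2D passed under none of the alternatives run, and CDKN2A under none in which it was tested.

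With DESeq2, 5 CDK inhibitors, 8 cyclins and kinases, 14 regulators, 13 E2F genes, 4 genes beside CDKN2A and 14 senescence genes passed, where 37% of all genes tested did. With edgeR these counts were 5, 8, 15, 13, 4 and 15, against 44.4%. Among genes averaging 1 RPM they were 5 CDK inhibitors, 13 E2F genes, 3 genes beside CDKN2A and 13 senescence genes, against 41.7%, and among those averaging 10 RPM 12 E2F genes and 3 genes beside CDKN2A, against 42.2%. Median centring gave 8 E2F genes and 3 beside CDKN2A, against 24.7% of all genes. The thresholds of the study gave 3 cyclins and kinases and 3 beside CDKN2A, against 20.1%. With the median of neighbouring genes taken out, 3 cyclins and kinases and 0 turnover genes passed, against 16%, and with trended robust eBayes 1 turnover gene, against 17.6%. The filters on the mean test fewer genes and fit limma again on these alone. The cause of the shifts in the counts was not tested.

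With the replicate number as a block, 3 cyclins and kinases and 1 gene beside CDKN1C passed, against 13.1% of all genes. The block ended no call of a member, with adjusted p = 0.026 for CDKN1A, 0.028 for CDKN1B and 0.045 for CDKN2C (limma). With 1 library left out, the counts ran from 1 to 3 for cyclins and kinases, 0 to 2 for turnover genes, 4 to 8 for regulators, 2 to 4 for E2F genes, 0 to 1 beside CDKN2A, 1 to 3 beside CDKN1C and 6 to 14 for senescence genes, the 14 being without HuCCT1/CD90- replicate 1, where 14.1% of all genes passed. Without any of the other libraries 10.6% to 12.8% of all genes passed. A few genes that did not pass turned direction. CDK6 was at -0.41 with neighbours taken out and TK1 at -0.022 with quantile normalization. With 1 library left out SMAD3 ran from -0.048 to 0.32, TK1 from -0.10 to 0.13 and E2F1 from -0.051 to 0.24. Depth limits CDKN1C, with 12 to 38 reads per library, and CDKN2A, with at most 1.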

Other observations

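The senescence-associated secretory phenotype is the set of secreted proteins known to accompany lasting arrest by CDK inhibitors. A list of 22 senescence genes held mostly these, with a nuclear lamin gene and a lysosomal enzyme gene among those not secreted. Of the 22, 6 were lower and 2 higher in HuCCT1/CD90+, 36.4% against 18.9% of all genes (limma). Among genes averaging 1 RPM or more 15.01% were lower and 14.35% higher. Without HuCCT1/CD90- replicate 1 14 of the 22 passed, against 14.1% of all genes. Under the replicate block 4 were lower and 2 higher, against 13.1%, and with edgeR 10 were lower and 5 higher, against 44.4% of the genes tested. MMP1, a collagenase, fell from 146 ± 41.3 to 6.89 ± 1.605 RPM (n = 3 each), and the chemokine CCL2 fell from 36.3 ± 7.9998 to 1.85 ± 0.473 RPM (adjusted p = 0.0023 and 0.0016, limma). TIMP1, an inhibitor of metalloproteinases, fell from 955 ± 86.1 to 322 ± 26.6 RPM (adjusted p = 0.0018). IGFBP3, which binds insulin-like growth factors, fell from 733 ± 69.3 to 349 ± 33.6 RPM (adjusted p = 0.0062, 0.055 with the replicate block), and its log2 difference of -1.07 was -1.68 with the neighbouring genes taken out. IGFBP5 had 366, 113 and 147 reads in HuCCT1/CD90- and 0, 0 and 1 reads in HuCCT1/CD90+, under the floor of 3 reads (adjusted p = 0.0062), and HuCCT1/CD90- replicate 1 stood above the others. AREG, an EGFR ligand, was among the 2 that rose, from 19.6 to 176 RPM (adjusted p = 0.0050). The interleukin genes IL6 and CXCL8, named after their values were seen, did not pass (adjusted p = 0.26 and 0.066), though both did with edgeR (0.0015 and 5.6e-06).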
